A study of Mus musculus with 10 samples.

Results

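The 10 libraries of CD31+ cells from B16F10 melanomas fell into 5 with a high and 5 with a low level of interferon genes, and these 2 sets of libraries are compared here. The interferon-high libraries were wild-type 3 and Shb-inactivated 3, 4, 5 and 6. The interferon-low libraries were wild-type 1, 2 and 4 and Shb-inactivated 1 and 2. All 10 libraries of the series were used. The members were chosen by measured values, the level of the Ifit, Oas, Gbp and Irf genes in these same libraries, so the higher interferon genes describe how the sets were chosen and are not a finding. For the same reason no p-value is given for any difference between the sets: differences are described by the values, by their size and by whether the 5 and 5 libraries overlap.

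Interferons are cytokines that put cells into an antiviral state. Type I interferons, such as interferon beta, act through the receptor chains Ifnar1 and Ifnar2 and a transcription factor complex that includes Irf9 and binds the interferon-stimulated response element in promoters of genes such as Ifit1. Interferon gamma acts through another receptor and a different motif and is known for inducing guanylate-binding proteins and antigen presentation. Endothelium responds to both, and under inflammatory cytokines it displays selectins and adhesion molecules that capture leukocytes from blood.

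The wild-type group (4 libraries) has the strain label Cdh5-CreERt2, and the Shb-inactivated group (6 libraries) the label Shbflox/flox/Cdh5-CreERt2. Both therefore carry the tamoxifen-inducible Cre recombinase driven by the endothelial gene Cdh5, and the mice are labelled adult. Shb encodes an adaptor protein of tyrosine kinase receptors. Cells carrying CD11b (the product of Itgam) had been depleted before cells carrying CD31 (the product of Pecam1) were sorted with magnetic beads from tumours of B16F10, a mouse melanoma cell line. The tissue label reads Tumors, the source label also names lungs, and neither a tamoxifen schedule, a sex nor a batch is labelled. Values are FPKM, which sets the fragments of a gene against the length of its transcript and the size of the library, and the depth of each library is unknown.

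Endothelial transcripts were high in all 10 libraries. Pecam1 was 569 to 1237 FPKM and Cdh5, VE-cadherin, was 374 to 616 FPKM. Shb stood at 2.78 to 5.44 FPKM in the 4 wild-type libraries and at 0.37 to 1.44 in the 6 Shb-inactivated ones, without overlap. The sum of FPKM ran from 477329 to 576687 and the Spearman correlation between libraries from 0.841 to 0.977. Some libraries stood apart. Wild-type 3 and Shb-inactivated 3 and 4, all interferon-high, were rich in Itgam despite the depletion, at 109, 29.3 and 35.9 FPKM, while the other 7 libraries had at most 5.85. Wild-type 1 and Shb-inactivated 1 and 2, all interferon-low, were poor in small nucleolar and small Cajal body RNAs, called small RNAs below. The FPKM of these RNAs summed to 1463 to 3559 there and to 3778 to 15498 in the other 7. The gap was narrow: Shb-inactivated 4, a high library, had 3778, and Shb-inactivated 2 had 3559. Ddx3y, a gene of the Y chromosome, was listed at 0 in wild-type 1 and Shb-inactivated 2, both interferon-low, and at 46.5 to 85.5 FPKM in the other 8. Differences that moved with such libraries are also given below for Shb-inactivated 5 and 6 alone, which had 0.42 and 0.32 FPKM of Itgam, or for the high libraries against wild-type 2 and 4 alone.

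The promoters of 4 of the higher genes show the motif of type I interferon or that of NF-kappaB. The interferon-stimulated response element was searched as GAAA, any 2 bases and GAAA, and the kappaB motif, bound by NF-kappaB, as GGG, any 3 bases and TTCC, on both strands, in RefSeq promoters of GRCm38.p6 that run from 250 bases before to 50 bases after each gene's start. The 250 bases before the start are printed on the gene's strand, from 5′ to 3′, with each match in capitals. Ifit1 and Ifit3, which encode antiviral RNA-binding proteins, are genes of the split. Trim30d, of a family of interferon-induced TRIM proteins, and Il6, the cytokine interleukin-6, are compared genes. The Ifit1 window is chr19:34640639-34640888 on the plus strand, with matches that begin 104 and 85 bases before the start. The Ifit3 window is chr19:34583279-34583528 on the plus strand, with matches that begin 156 and 122 bases before the start. The Trim30d window is chr7:104507850-104508099 on the minus strand, with a match 41 bases before the start. The Il6 window is chr5:30012864-30013113 on the plus strand, with a kappaB match 44 bases before the start.
Ifit1: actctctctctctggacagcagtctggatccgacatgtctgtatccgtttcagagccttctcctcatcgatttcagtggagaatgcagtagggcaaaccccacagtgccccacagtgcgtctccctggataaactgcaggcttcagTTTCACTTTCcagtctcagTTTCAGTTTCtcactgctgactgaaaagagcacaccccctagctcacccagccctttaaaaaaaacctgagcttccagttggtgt
Ifit3: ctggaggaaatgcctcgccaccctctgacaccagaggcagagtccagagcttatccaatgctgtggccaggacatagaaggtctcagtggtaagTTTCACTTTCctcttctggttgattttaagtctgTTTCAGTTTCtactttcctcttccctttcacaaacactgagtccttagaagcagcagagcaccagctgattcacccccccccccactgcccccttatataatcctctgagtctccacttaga
Trim30d: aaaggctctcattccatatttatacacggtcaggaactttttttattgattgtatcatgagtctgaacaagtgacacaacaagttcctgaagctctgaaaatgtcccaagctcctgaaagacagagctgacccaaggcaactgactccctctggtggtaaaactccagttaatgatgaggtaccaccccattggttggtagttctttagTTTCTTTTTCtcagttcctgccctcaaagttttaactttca
Il6: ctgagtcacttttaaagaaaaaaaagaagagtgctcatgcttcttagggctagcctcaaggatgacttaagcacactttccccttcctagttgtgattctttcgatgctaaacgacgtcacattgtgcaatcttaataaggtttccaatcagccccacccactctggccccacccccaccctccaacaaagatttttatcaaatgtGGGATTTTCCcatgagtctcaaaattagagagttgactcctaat
Among the interferon genes higher without overlap, which include genes of the split, 23 of 38 with a promoter (60.5%) held the response element. It was in 46 of 119 tested interferon genes (38.7%), 3.83% of the 8978 tested genes with a promoter and 3.99% of all 27025 promoters. The motif of interferon gamma was searched as TTC, any 3 bases and GAA on both strands. It was in 15.8% of the 38, 21.0% of the 119, 8.28% of the tested genes and 9.55% of all promoters. The libraries were split by such genes, so the shares of both motifs describe the split and are not a finding. Of other higher genes, Gbp2 held the response element, and Irf7 and Casp4 did not. Nfkbia held a kappaB match, and Sele, Selp and Icam1 did not. The letters are not a shown binding site.

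The genes of the split separated the sets by construction, and are given as a description. Of the 27 tested genes of the Ifit, Oas, Gbp and Irf families, 12 were higher in all 5 high libraries than in all 5 low ones and 1 was lower. Over all 12805 genes tested, the share that was higher without overlap was 2.59%. All 4 Ifit genes were among the 12, with 3 of 7 Oas, 3 of 7 Gbp and 2 of 9 Irf genes. In the high libraries, always in the order wild-type 3 and Shb-inactivated 3, 4, 5 and 6, Ifit1 was 16.2, 9.23, 15.1, 16.3 and 8.82 FPKM. In the low libraries, always in the order wild-type 1, 2 and 4 and Shb-inactivated 1 and 2, it was 4.06, 3.27, 2.86, 2.98 and 2.38 FPKM. Irf7, the factor that amplifies interferon production, was 46.1, 18.1, 27.2, 39.8 and 23.7 FPKM in the high libraries and 14.6, 11.3, 9.29, 14.1 and 12.4 in the low ones. Its lowest high library, Shb-inactivated 3, was close to the highest low one. Gbp2, a guanylate-binding GTPase, overlapped between the sets, at 25.2, 23.8, 19.6, 41.6 and 33.3 FPKM in the high and 13.5, 12.6, 12.9, 14.6 and 24.2 in the low libraries. The overlap came from Shb-inactivated 2, a low library above 2 of the high ones. Irf3, a factor that switches on the interferon beta gene, was the gene in the lower direction, at 25.2, 22.7, 24.4, 24.5 and 27.6 FPKM in the high libraries and 28.8, 31.9, 31.7, 39.9 and 36.5 in the low ones. The mean log2(FPKM + 1) of the 27 genes placed Shb-inactivated 3 lowest in the high set at 3.39 and Shb-inactivated 2 highest in the low set at 3.01.

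**Figure D1:**
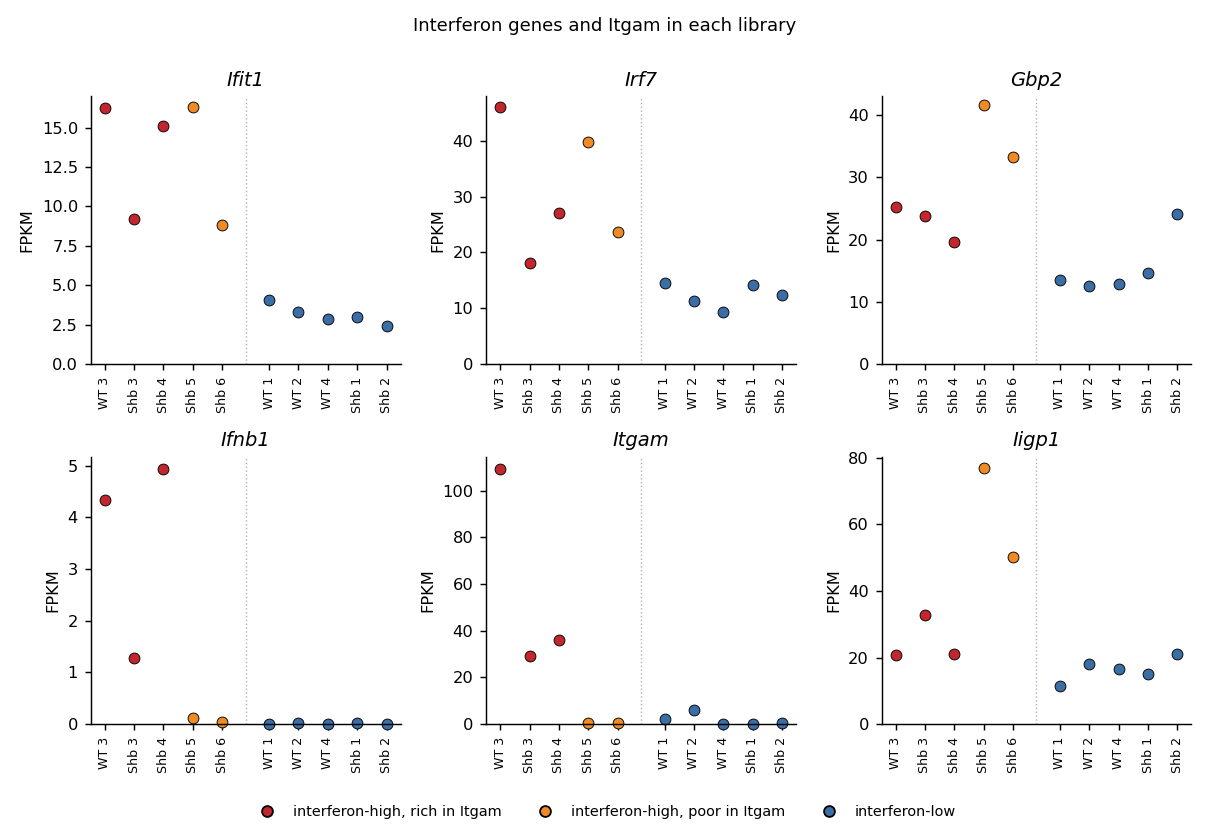
FPKM of Ifit1, Irf7, Gbp2, Ifnb1, Itgam and Iigp1 (vertical axes, linear, from 0) in each library (horizontal axis; WT, wild-type; Shb, Shb-inactivated); each point is 1 library and no error is drawn. Ifit1 runs from 8.82 to 16.3 FPKM in the high and from 2.38 to 4.06 in the low libraries, Ifnb1 reaches 1.27 or more only in the 3 Itgam-rich libraries, and Iigp1 is highest in Shb-inactivated 5 and 6, at 77.1 and 50.1.

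Interferon genes outside the split families were higher as well, though not all of them in every high library. Among ligands, Ifnb1 (interferon beta) was 4.34, 1.27, 4.93, 0.12 and 0.05 FPKM in the high libraries and 0, 0.02, 0, 0.03 and 0 in the low ones, so it was seen mainly in the 3 Itgam-rich libraries. Ifng (interferon gamma) was 0.06, 0.06, 0.14, 0.08 and 0.65 FPKM in the high and 0.83, 0.2, 0.46, 0.53 and 0.27 in the low libraries, which overlap, and neither ligand passed the filter on low values. Of the receptor chains, Ifnar2 was 77.7, 73.1, 73.4, 84.7 and 54.3 FPKM in the high and 34, 51.3, 55.01, 51.7 and 39.6 in the low libraries, and only Shb-inactivated 6 fell among the low ones. Of the 25 tested signalling genes, 10 were higher without overlap, against 2.59% of all 12805 genes tested. Of the 13 tested sensors of foreign nucleic acid, 7 were, and of the 45 antiviral effectors, 14. Zbp1, a sensor of Z-form nucleic acid, was 19.03, 6.51, 7.96, 12.5 and 5.59 FPKM in the high and 2.79, 3.07, 1.73, 2 and 2.38 in the low libraries. Isg15, a ubiquitin-like protein, was 28.9, 15.1, 24.8, 32.8 and 20.5 FPKM in the high and 8.84, 9.78, 11.1, 11.1 and 11.4 in the low libraries.

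The 2 kinds of high library differed in which interferon genes were highest. Iigp1, an immunity-related GTPase that attacks vacuoles of pathogens, was 20.8, 32.7, 21.2, 77.1 and 50.1 FPKM in the high libraries and 11.6, 18.2, 16.5, 15.1 and 21.2 in the low ones. Only Shb-inactivated 3, 5 and 6 lay clear of the low set. All 8 tested immunity-related GTPases were above all 5 low libraries in Shb-inactivated 5 and 6, as 7.79% of the compared genes outside the interferon lists were (985 of 12650), with a median difference of 1.11 on the log2(FPKM + 1) scale, against 0.27 in the 3 Itgam-rich libraries. In the other direction, Mx1, a dynamin-like antiviral GTPase, was 11.3, 2.21, 6.24, 0.5 and 1.13 FPKM in the high and 2.22, 0.53, 0.23, 0.46 and 0.2 in the low libraries, so that only the Itgam-rich libraries wild-type 3 and Shb-inactivated 4 lay clear of the low set. Its difference was 1.29 over the 5 high libraries and 0.16 in Shb-inactivated 5 and 6. Cxcl10, a chemokine for T cells, was 47.99, 27.4, 48.97, 14.8 and 19.1 FPKM in the high and 13.8, 10.5, 9.37, 5.82 and 6.99 in the low libraries, without overlap, and its difference of 1.57 was 0.84 in Shb-inactivated 5 and 6. B2m, the light chain of class I antigen-presenting molecules, was 2438, 2124, 1861, 3355 and 1803 FPKM in the high and 876, 1320.1, 1312, 1009 and 1077 in the low libraries, without overlap. Cd74, the invariant chain of class II molecules, went both ways: it was 571, 45.2, 96.8, 33.95 and 53.4 FPKM in the high libraries and 171, 97.3, 129, 136 and 124 in the low ones. It was highest of all in wild-type 3 and lower in each of Shb-inactivated 3, 4, 5 and 6 than in any low library.

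Outside the interferon genes, 12650 genes were compared. Of these, 283 (2.24%) were higher in every high library than in every low one and 438 (3.46%) were lower. The counts of each list below are to be read beside these shares. A mean difference of at least 1 on the log2(FPKM + 1) scale was reached by 464 genes (3.67%) in the higher and 130 (1.03%) in the lower direction. The median difference over all compared genes was -0.02. The higher genes held endothelial selectins, Il6 and inflammatory caspases. The lower genes held platelet and B cell transcripts, replication-dependent histones, mitotic genes and enzymes of sterol and fatty acid synthesis. Because the split was drawn from these libraries, and 4 of the 5 high libraries are Shb-inactivated against 2 of the 5 low ones, the counts describe these 10 libraries only.

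Some leukocyte adhesion genes of endothelium were higher in the high libraries. Of 12 tested genes of that list, 3 were higher without overlap, against 2.24% of all compared genes, and 0 lower. The median difference was 0.32. Sele (E-selectin, chromosome 1 from 164048234 to 164057677 in GRCm38), which tethers rolling leukocytes and is made almost only by activated endothelium, was 26.7, 15.1, 9.75, 12.3 and 12.5 FPKM in the high libraries. In the low libraries it was 1.47, 3.6, 2.43, 4.78 and 3.69 FPKM. The lowest high library, Shb-inactivated 4, was well above the highest low one, and the difference was 1.93 (SE 0.31). Selp (P-selectin, chromosome 1 from 164115264 to 164150026), stored in endothelial cells and also in platelets, was 14.3, 12.2, 6.78, 10.03 and 12.2 FPKM in the high and 2.97, 3.34, 1.37, 4.4 and 4.71 in the low libraries. That difference was 1.5 (SE 0.28), with Shb-inactivated 4 the lowest high library. Icam1, the ligand of leukocyte integrins, was 48.9, 31.4, 32.01, 25.6 and 29.4 FPKM in the high and 16.6, 23.1, 14.5, 18.6 and 22.03 in the low libraries. Its difference of 0.77 (SE 0.19) was smaller, and Shb-inactivated 5 lay just above the highest low library. Vcam1, the ligand of integrin alpha 4, was 16.6, 21.6, 16.1, 11.7 and 8.88 FPKM in the high and 11.2, 7.26, 4.1, 3.7 and 5.67 in the low libraries, and overlapped, since Shb-inactivated 6 was below wild-type 1, and its difference of 1.15 was 0.69 in Shb-inactivated 5 and 6. Ackr1, the chemokine-binding receptor of venules, was 6.22, 6.66, 1.95, 14.1 and 8.8 FPKM in the high and 1.36, 2.22, 0.86, 4.3 and 3.29 in the low libraries, with Shb-inactivated 4 among the low ones.

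The size of the selectin differences was also taken without the Itgam-rich libraries. In Shb-inactivated 5 and 6 against the 5 low libraries, Sele differed by 1.73, Selp by 1.54 and Icam1 by 0.53 on the log2(FPKM + 1) scale. Against the 3 low libraries that are also poor in Itgam (wild-type 4 and Shb-inactivated 1 and 2), the values were 1.56, 1.53 and 0.57. Sele differed by 3.03 within wild type (1 high against 3 low) and by 1.35 within Shb-inactivated libraries (4 against 2). Selp differed by 2.15 and 1.00. Sele, Selp and Icam1 had no overlap between the sets, so their direction in each of these subsets was fixed in advance. Only the sizes are described. Platelets also hold Selp. Of platelet transcripts, Gp9 and Tubb1 were lower in the high libraries, and Pf4 was highest in the 3 Itgam-rich ones. The part of platelets in the Selp values was not tested. In bulk RNA, more cells of a kind and more RNA per cell cannot be told apart.

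**Figure D2:**
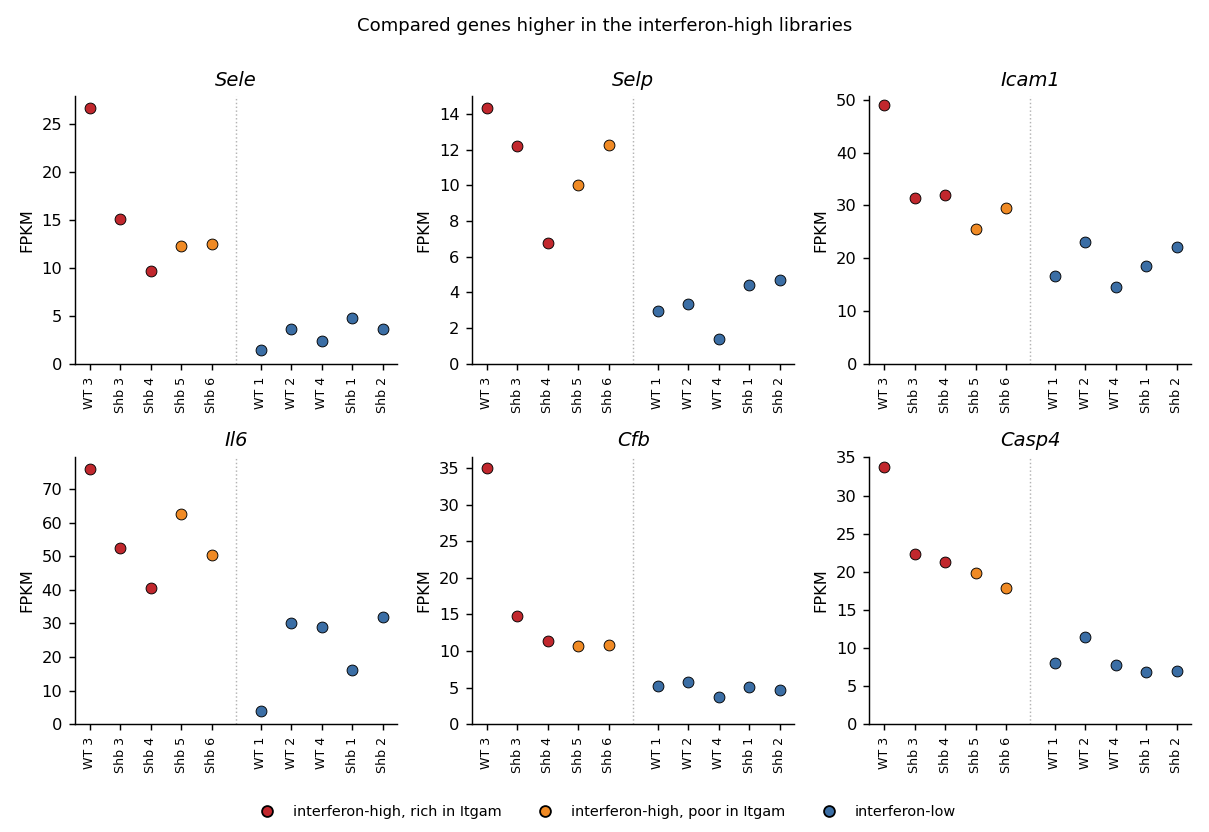
FPKM of Sele, Selp, Icam1, Il6, Cfb and Casp4 (vertical axes, linear, from 0) in each library (horizontal axis; WT, wild-type; Shb, Shb-inactivated); each point is 1 library and no error is drawn. In all 6 genes every high library lies above every low one, and the lowest high values of Sele (9.75) and Casp4 (17.9) are well above their highest low values (4.78 and 11.4).

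Il6, Nfkbia and Atf3 were higher without overlap, while most genes of their lists overlapped. Of the 18 tested NF-kappaB targets, 3 were higher without overlap, against 2.24% of all compared genes, and 0 lower. The median was 0.64, but in Shb-inactivated 5 and 6 it was 0.12. Il6 was 76.04, 52.4, 40.6, 62.6 and 50.3 FPKM in the high libraries and 3.96, 30.02, 28.8, 16.04 and 31.96 in the low ones. Its difference was 1.55 (SE 0.54), and wild-type 1 was far below the other low libraries. Against wild-type 2 and 4 alone the difference was 0.88, and in Shb-inactivated 5 and 6 against all low libraries it was 1.58. Nfkbia, the inhibitor that NF-kappaB induces against itself, was 478, 313, 334, 212 and 195 FPKM in the high and 64.2, 163, 120.3, 115 and 188 in the low libraries. Shb-inactivated 6 was barely above Shb-inactivated 2, and the difference of 1.24 was 0.73 in Shb-inactivated 5 and 6. Atf3, a stress-induced transcription factor, was 275, 277, 244, 92 and 114 FPKM in the high and 22.4, 89.3, 55.96, 51.8 and 87.3 in the low libraries, and it was highest in the 3 Itgam-rich libraries. Its difference of 1.7 was 0.88 in Shb-inactivated 5 and 6. Atf3 was the only gene of 20 immediate early genes without overlap, and the median of that list was 0.44 over the 5 high libraries and 0.15 in Shb-inactivated 5 and 6.

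Genes of the inflammatory caspases and of complement were among those apart. Casp4, Casp1 and Cfb were compared because they were on none of the interferon lists. Whether their differences are part of the interferon response itself was not tested. Casp4, the caspase that senses bacterial lipopolysaccharide in the cytosol, was 33.8, 22.3, 21.2, 19.8 and 17.9 FPKM in the high libraries and 8.03, 11.4, 7.74, 6.79 and 7.01 in the low ones. The 5 high libraries stood close together, wild-type 3 excepted, and the difference was 1.37 (SE 0.19). Casp1, the caspase that matures interleukin-1 beta, was 29.6, 27.01, 20.9, 9.51 and 6.69 FPKM in the high and 3.4, 5.87, 4.15, 2.62 and 1.71 in the low libraries, without overlap but with the Itgam-rich libraries highest. Cfb, complement factor B, was 34.99, 14.8, 11.3, 10.7 and 10.8 FPKM in the high and 5.25, 5.7, 3.7, 5.02 and 4.68 in the low libraries, and wild-type 3 was far above the rest. From the low libraries, Shb-inactivated 5 and 6 differed in Casp4 by 1.13, in Casp1 by 1.05 (against 1.99 over the 5 high libraries) and in Cfb by 1.01. A list of 14 inflammasome and cell death genes was drawn up after values were seen, so its count is in part built in by the choice of members. Of these, 4 were higher without overlap, against 2.24% of all compared genes, and 0 lower. The median of 0.58 was 0.30 in Shb-inactivated 5 and 6.

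Several other higher genes belong to families that interferon is known to induce but were on none of the interferon lists. Trim30d, whose promoter is printed above, was 14.9, 7.14, 8.34, 16.4 and 8.34 FPKM in the high libraries and 3.37, 5.77, 4.96, 5.17 and 3.78 in the low ones. Pydc4, a pyrin-domain protein, was 10.97, 4.05, 5.56, 7.17 and 4.44 FPKM in the high and 2.44, 2.2, 1.93, 1.77 and 1.5 in the low libraries. Slfn4, of the schlafen family, was 53.2, 5.18, 8.9, 11.8 and 7.29 FPKM in the high and 1.56, 6.15, 2.81, 2.26 and 1.7 in the low libraries, and Shb-inactivated 3 fell below wild-type 2. Of the compared genes that were higher without overlap, 8 of 191 with a promoter (4.19%) held the interferon response element, and 14 (7.33%) the kappaB motif. These shares stood beside 3.36% and 7.45% of all 8859 compared genes with a promoter. In the lower genes they were 10 of 319 (3.13%) and 23 (7.21%).

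Further genes with a wide gap had other roles. Lepr, the leptin receptor, was 17.1, 26.3, 25.1, 32.7 and 15.1 FPKM in the high and 7.67, 10.5, 9.04, 12.5 and 9.45 in the low libraries. Bnip3, a hypoxia-induced mitochondrial protein, was 91.6, 45.6, 68.8, 87.99 and 41.4 FPKM in the high and 24.9, 34.1, 33.96, 14.3 and 29.8 in the low libraries, and 1 of 14 hypoxia genes without overlap. Aqp1, the water channel of endothelium, was 1211, 1195, 1369, 1170.3 and 669 FPKM in the high and 301, 505, 445, 596 and 592 in the low libraries, with Shb-inactivated 6 far below the other high ones. Bst1, an ectoenzyme, was 36.9, 20.2, 14.9, 12.4 and 8.75 FPKM in the high and 3.64, 6.64, 4.34, 5.35 and 5.47 in the low libraries, highest in wild-type 3, and its difference of 1.55 was 0.93 in Shb-inactivated 5 and 6. Ppp3ca, the catalytic subunit of calcineurin, was 43.5, 49.01, 44.8, 45.2 and 42.7 FPKM in the high and 30.7, 34.6, 34.95, 33.6 and 33.6 in the low libraries. It had a small difference, 0.42 (SE 0.05), with little spread in either set. Pnrc1, a nuclear receptor coactivator, was 121, 82.03, 81.8, 99.05 and 81.9 FPKM in the high and 50.5, 62.5, 67, 55.3 and 65.2 in the low libraries.

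Most of the larger differences in the higher direction were not seen in Shb-inactivated 5 and 6. A difference was counted as held there where both libraries lay beyond all 5 low ones and their mean differed by at least 1. Of the 464 higher genes, 33 (7.11%) held, 239 (51.5%) had both libraries within the range of the low ones, and 251 had a mean on the other side. Of the 130 lower genes, 37 (28.5%) held and 29 had both libraries within the low range. Over all 12650 genes, 74 (0.585%) were above and 93 (0.735%) below all low libraries by at least 1 in Shb-inactivated 5 and 6, whatever the 5-against-5 difference. The held genes were 0.261% and 0.292% of all compared genes. Since Shb-inactivated 5 and 6 are 2 of the 5 high libraries, both comparisons rest in part on the same libraries.

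Macrophage markers followed Itgam across the high libraries. All 18 macrophage markers were tested, with a median difference of 2.61, and 0 were without overlap in either direction. Their FPKM summed to 4470 to 7018 in the 3 Itgam-rich libraries, to 71.9 to 72.2 in Shb-inactivated 5 and 6, to 69.3 to 96.9 in the 3 Itgam-poor low libraries and to 296 to 660 in wild-type 1 and 2. In Shb-inactivated 5 and 6 the median over the 18 was -0.95 against all 5 low libraries and -0.09 against the 3 Itgam-poor ones. No marker was at 0 in both libraries. Lyz2, the lysozyme of myeloid cells, was 2944, 2264, 1577, 16.9 and 17.8 FPKM in the high libraries and 107, 292, 21.4, 28.7 and 17.3 in the low ones. Ccl7, a monocyte chemokine, was 799.8, 572, 482, 12.4 and 3.53 FPKM in the high and 12.7, 56.9, 4.08, 2.25 and 3.18 in the low libraries, and Cxcl2, a neutrophil chemokine, 1281, 397, 399, 17.2 and 18.4 FPKM in the high and 9.33, 103, 8.44, 4.42 and 5.38 in the low libraries. In all 3 genes the Itgam-rich libraries were the highest, followed by wild-type 2. Shb-inactivated 5 and 6 differed from the 5 low libraries by -1.51, -0.18 and 0.55. From the 3 Itgam-poor low libraries they differed by -0.33, 0.93 and 1.45. For genes that macrophages share with endothelium, such as Nfkbia, Atf3 and Casp1, the part of these cells in the 5-against-5 difference was not tested.

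**Figure D3:**
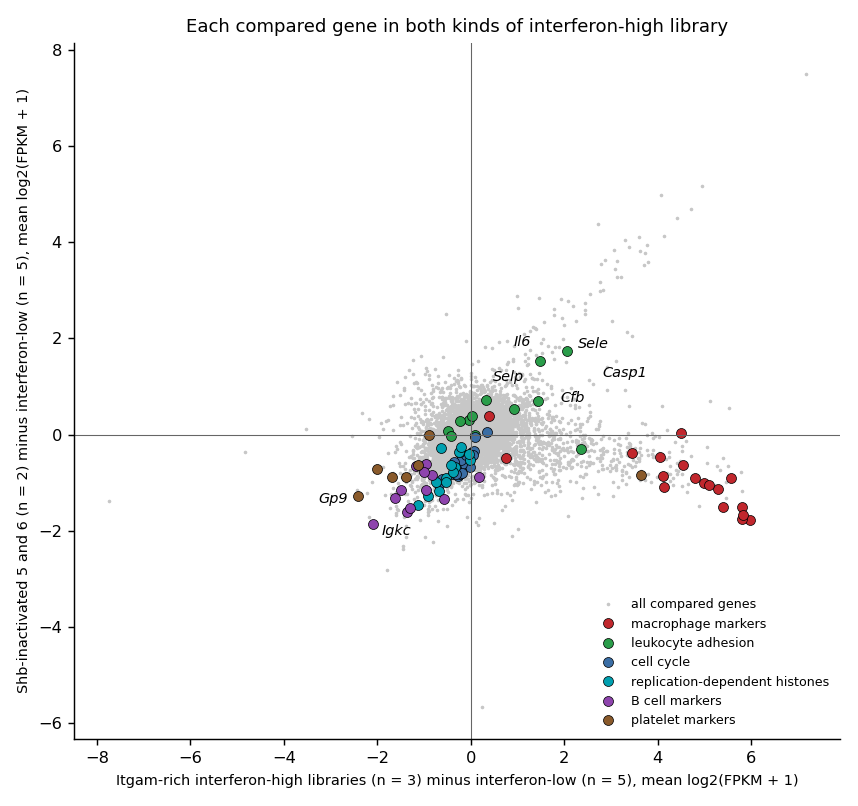
Difference in mean log2(FPKM + 1) of each of the 12650 compared genes (grey points), with the 3 Itgam-rich high libraries minus the 5 low ones on the horizontal axis and Shb-inactivated 5 and 6 minus the 5 low ones on the vertical axis; genes of 6 lists are coloured and 7 genes are labelled. Macrophage markers lie to the right with a vertical median of -0.95, Sele and Selp lie high on both axes, and B cell, platelet, histone and cell cycle genes lie mostly below 0 on both.

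Of the 33 genes that held in the higher direction, 10 had clone-type symbols, 4 were genes of the Y chromosome and 2 were small RNA genes. The rest included Sele, Selp, Il6, Ackr1, Casp1, Casp4, Cfb, Bnip3, Lepr, Pydc4, Slfn4, Trim30d and the tyrosine kinase Tec. Tec was 18.1, 15.8, 15.1, 23.04 and 8.5 FPKM in the high and 6.88, 7.04, 5.93, 4.55 and 2.88 in the low libraries. Ddx3y was 52.1, 64.7, 57.03, 85.5 and 58.5 FPKM in the high and 0, 52.05, 57.05, 46.5 and 0 in the low libraries, and Uty, a Y-linked relative of the demethylase Kdm6a, followed it, at 0.18 and 0 FPKM in wild-type 1 and Shb-inactivated 2. Against wild-type 2 and 4 alone Ddx3y differed by 0.2. Alpk2, an alpha-kinase, had the largest held difference and was 43.2, 34.5, 29.6, 54.9 and 44.3 FPKM in the high and 0.1, 32.1, 23.9, 0.22 and 0.08 in the low libraries. It was near 0 in the 3 libraries poor in small RNAs, and against wild-type 2 and 4 it differed by 0.53. By that measure Sele differed by 1.95, Selp by 1.88, Casp4 by 1.17, Cfb by 1.49 and Lepr by 1.12.

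Platelet transcripts were lower in the high libraries. Of 7 tested platelet markers, 4 were lower without overlap, against 3.46% of all compared genes, and 0 higher. The median was -1.19. Gp9, a subunit of the platelet receptor for von Willebrand factor, was 4.08, 0.24, 0.66, 3.37 and 4.27 FPKM in the high libraries and 12.1, 13.2, 8.85, 10.6 and 9.11 in the low ones. The difference was -1.96 (SE 0.45), and Shb-inactivated 3 and 4 were lowest. Tubb1, the tubulin of platelets and not on the list, was 6.9, 0.92, 1.39, 5.91 and 8.34 FPKM in the high and 23.01, 22.5, 13.2, 12.8 and 15.1 in the low libraries. Itga2b, the platelet integrin, was 5.04, 2.31, 2.81, 5.95 and 7 FPKM in the high and 16.3, 15.1, 8.63, 11.3 and 13.4 in the low libraries, and Alox12, the platelet lipoxygenase and also not on the list, 3.43, 1.66, 1.35, 4.13 and 4.86 in the high and 8.42, 8.61, 8.33, 9.66 and 7.77 in the low ones. Pf4, a platelet chemokine that macrophages can also express, went the other way, with 926, 564, 498, 29.4 and 26.4 FPKM in the high and 55.5, 154, 48.7, 30.2 and 25.7 in the low libraries. It was highest in the 3 Itgam-rich libraries. In Shb-inactivated 5 and 6 the median of the platelet list was -0.84, and Gp9 differed by -1.28, Tubb1 by -1.15, Itga2b by -0.87 and Alox12 by -0.8, against -1.96, -1.92, -1.36 and -1.31 over the 5 high libraries.

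B cell and immunoglobulin transcripts were lower, most of all in the Shb-inactivated high libraries. Of 12 tested B cell markers, 3 were lower without overlap, against 3.46% of all compared genes, and 0 higher. The median was -1.004. Of the 12, 9 were below all 5 low libraries in Shb-inactivated 5 and 6, as 12.2% of all compared genes were (1539 of 12650). Their FPKM summed to 27.4 to 108 in the high and 91.4 to 213 in the low libraries. Igkc, the kappa light chain constant region, was 40.9, 5.73, 9.53, 10.2 and 24.9 FPKM in the high and 93.9, 33.8, 70.1, 48.7 and 74.9 in the low libraries, and wild-type 3 was above wild-type 2, so the sets overlapped. Ighm, the heavy chain of IgM, was 31.9, 8.77, 11.8, 8.21 and 19.6 FPKM in the high and 55.1, 27.7, 46.7, 35.7 and 34.1 in the low libraries, again with wild-type 3 among the low ones. Igkv10-96, a kappa variable segment, was 2.02, 1.95, 0.14, 0.68 and 1.5 FPKM in the high and 19.2, 3.56, 6.26, 3.04 and 3.52 in the low libraries. Of the 37 genes that held in the lower direction, 10 (27%) were immunoglobulin genes, against 0.3% of all compared genes. Variable segments resemble each other, so reads can be split between them.

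Cell cycle genes were lower, and lowest in Shb-inactivated 5. Of 25 tested cell cycle genes, 3 were lower without overlap, against 3.46% of all compared genes, and 0 higher. Of the 25, 23 had a difference below 0, and the median was -0.42. In Shb-inactivated 5 and 6 the median was -0.68, with 11 of 25 below all 5 low libraries, against 12.2% of all compared genes. The mean log2(FPKM + 1) of the 25 was 4.31 in Shb-inactivated 5, 4.86 in Shb-inactivated 6, 4.78 in wild-type 3 and 5.05 to 5.19 in Shb-inactivated 4 and 3, and it was 4.898 to 5.54 in the low libraries, so that Shb-inactivated 3 and 4 lay among these. Cdc20, the activator of the anaphase-promoting complex, was 17.04, 21.1, 21.4, 11.9 and 20.99 FPKM in the high libraries and 25.4, 27.4, 35.99, 35.5 and 31.8 in the low ones. Plk1, a mitotic kinase, was 7.52, 8.57, 9.74, 4.68 and 8.74 FPKM in the high and 13.3, 11, 15.2, 18.2 and 15.03 in the low libraries. Mybl2, a transcription factor of dividing cells, was 4.26, 4.8, 5.33, 2.33 and 5.06 FPKM in the high and 10.2, 7.72, 7.76, 8.97 and 7.91 in the low libraries. In all 3 genes Shb-inactivated 5 was the lowest library. Melanoma cells divide as well, and the 12 tested melanoma markers had a median of -0.46 over the 5 high libraries and -1.52 in Shb-inactivated 5 and 6, with 0 without overlap. Their summed FPKM was 17.1 to 450 in the high and 24.1 to 1308 in the low libraries, and their part in the cell cycle values was not tested.

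Replication-dependent histone genes, whose transcripts carry no poly(A) tail and are seen in total RNA, were lower. All 15 tested genes had a difference below 0, with a median of -0.51. Of these, 3 were lower without overlap, against 3.46% of all compared genes. Hist1h2ae, an H2A gene, was 10.2, 15.9, 15.7, 7.63 and 15 FPKM in the high libraries and 28.02, 24, 39.9, 41.3 and 26.8 in the low ones. Hist1h2ab, another H2A gene, was 27.3, 44.3, 38.5, 22.1 and 35.03 FPKM in the high and 63.02, 46.6, 77.9, 99.02 and 66.8 in the low libraries. H2afx, the H2A variant of DNA damage signalling, was 16.96, 20.1, 19.04, 11.5 and 21.2 FPKM in the high and 30.9, 29.1, 42.6, 45.5 and 30.9 in the low libraries. Of the 438 lower genes 12 were histone genes by symbol, 2.74%, against 0.514% of all compared genes, and 9 of the 37 held genes were. Histone genes share long stretches of sequence, so single members are uncertain.

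**Figure D4:**
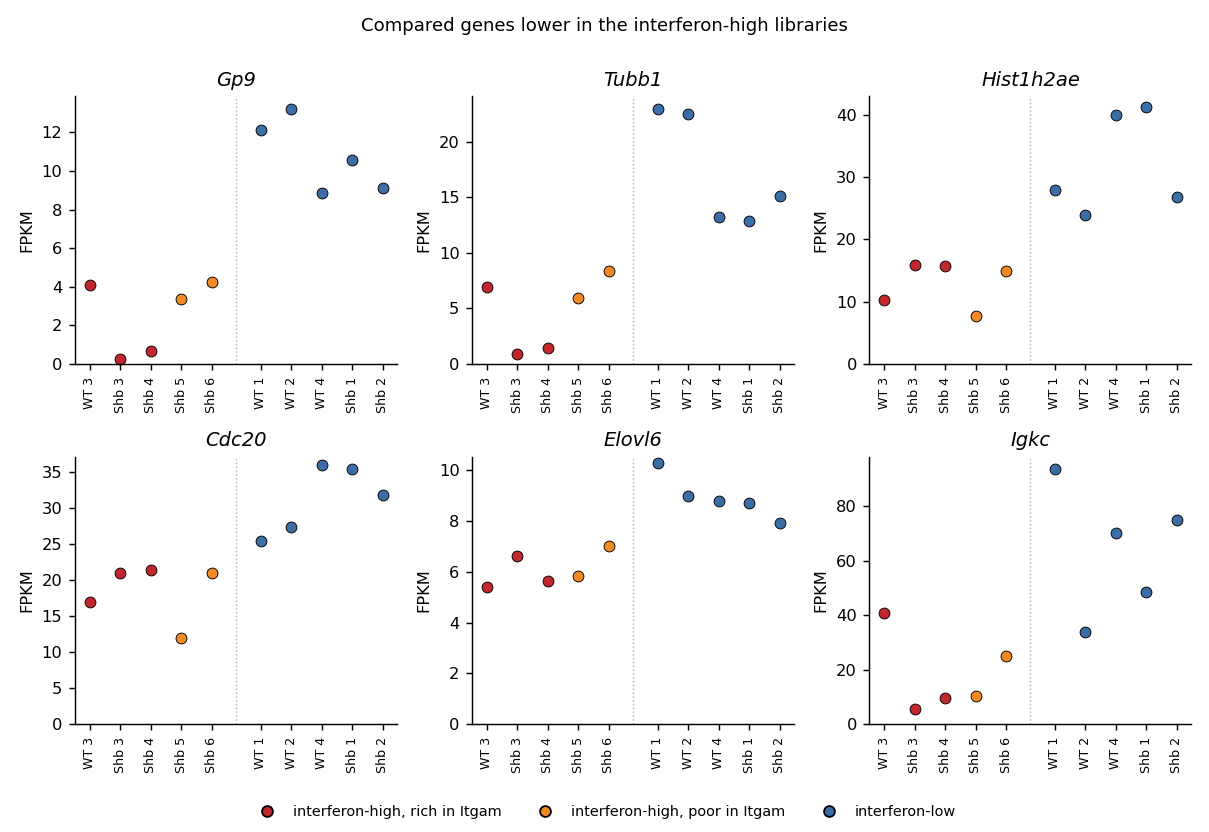
FPKM of Gp9, Tubb1, Hist1h2ae, Cdc20, Elovl6 and Igkc (vertical axes, linear, from 0) in each library (horizontal axis; WT, wild-type; Shb, Shb-inactivated); each point is 1 library and no error is drawn. Every high library lies below every low one except in Igkc, where wild-type 3 (40.9) is above wild-type 2 (33.8).

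Enzymes of sterol and fatty acid synthesis were lower. A list of 25 such genes was drawn up after some of these values were seen, so its count is in part built in by the choice of members. Of these, 8 were lower without overlap, against 3.46% of all compared genes, and 0 higher. The median was -0.44. Elovl6, an elongase of long-chain fatty acids, was 5.4, 6.64, 5.62, 5.84 and 7 FPKM in the high libraries and 10.3, 8.97, 8.78, 8.71 and 7.92 in the low ones. Its difference was -0.49 (SE 0.08), and it was -0.42 in Shb-inactivated 5 and 6. Fasn, fatty acid synthase, was 13.4, 8.43, 14.2, 4.5 and 12.1 FPKM in the high and 45, 17.1, 13.8, 23.2 and 23.6 in the low libraries, and overlapped because Shb-inactivated 4 was above wild-type 4. Shmt2, a mitochondrial enzyme of serine and one-carbon metabolism, was 11.9, 10.8, 12.5, 8.46 and 13.2 FPKM in the high and 19.3, 17.1, 17.2, 20.4 and 17.1 in the low libraries.

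Ribosome biogenesis genes were lower as well. Nop2, a methyltransferase of ribosomal RNA, was 16.4, 15.5, 14.3, 12.99 and 18.3 FPKM in the high and 27.7, 20.6, 19.2, 22.9 and 18.9 in the low libraries. Bop1, a factor of large subunit assembly, was 16.6, 14.6, 16.5, 9.72 and 14.3 FPKM in the high and 23, 18.6, 17.6, 23.5 and 22.2 in the low libraries. A list of 25 such genes was also drawn up after values were seen, so its count too is in part built in. Of these, 12 were lower without overlap, against 3.46% of all compared genes, and 0 higher. The median was -0.42. After a correction for GC content, described below, 4 were lower without overlap, 3 of them among the 12. The 27 tested cytosolic ribosomal proteins had a median of -0.15, with 2 lower without overlap, against 3.46% of all compared genes. Of signalling genes, Traf4, an adaptor of the TRAF family, was 3.63, 2.06, 3.56, 3.18 and 4.61 FPKM in the high and 14.9, 6.13, 6.9, 6.76 and 8.19 in the low libraries. Nrarp, a feedback inhibitor that Notch induces, was 8.39, 7.18, 10.8, 11.6 and 12.2 FPKM in the high and 14.9, 15.1, 17.1, 27.5 and 19.7 in the low libraries, and the only 1 of 16 Notch pathway genes without overlap. Id3, a target of BMP signalling, was 68.2, 77.9, 79.1, 93.2 and 96.2 FPKM in the high and 102, 109, 116, 123 and 129 in the low libraries, and its difference of -0.48 was -0.28 in Shb-inactivated 5 and 6.

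The GC content of transcripts differed between the higher and the lower genes, though it did not separate the high from the low libraries. The median GC of the longest coding transcript was 43.7% for the higher genes (240 of 283 with a transcript), 55.3% for the lower genes (397 of 438) and 49.97% for all compared genes. Among genes under 45% GC, 5.33% were higher and 0.609% lower without overlap, and among genes over 55% GC, 0.308% and 7.85%. The libraries most tilted towards GC-rich genes were Shb-inactivated 2, Shb-inactivated 1 and wild-type 1, at 0.49, 0.33 and 0.32 on the log2 scale, the same 3 that were poor in small RNAs. Shb-inactivated 5 and 3 were most tilted the other way, at -0.45 and -0.42. Between these, the sets overlapped. High libraries wild-type 3 and Shb-inactivated 4 and 6 stood at 0.03, -0.03 and -0.13, and low libraries wild-type 2 and 4 at -0.07 and -0.12. Within wild-type libraries the median difference was -0.01 for genes under 45% GC and -0.04 for those over 55%. Over all 10 libraries these medians were 0.16 and -0.25. After each library was centred within GC classes, a step chosen after seeing the data, 243 genes were higher and 261 lower without overlap among 10910 compared, and 131 and 171 of these were among the 283 and 438. Of the 42 named compared genes without overlap, 32 still had none in the same direction. The differences of Sele (1.89), Selp (1.55), Casp4 (1.22), Gp9 (-1.70), Hist1h2ae (-1.15), Cdc20 (-0.59) and, outside the 42, Elovl6 (-0.63) stayed without overlap. Among the 10 that then overlapped were H2afx (-0.66), Hist1h2ab (-0.73), Id3 (-0.34) and Shmt2 (-0.43). The sterol list then had 8 genes lower without overlap, 7 of them among the 8 before. The immunity-related GTPases had 0 higher without overlap in place of 2, and class I presentation genes 8 in place of 3. Of list genes lower without overlap before, 3 of 3 cell cycle, 3 of 4 platelet and 1 of 3 histone genes stayed so. Of the 12 B cell markers, 10 had a GC value, and 2 of the 3 lower ones stayed so. Of list genes higher without overlap, 3 of 3 leukocyte adhesion, 3 of 3 NF-kappaB and 3 of 4 inflammasome genes stayed so. How much of any difference GC content accounts for was not tested.

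Lists of endothelial identity held few genes without overlap. The 31 pan-endothelial genes had a median of -0.13 and 0 without overlap, the 15 arterial genes -0.11 and 0, and the 17 genes of the VEGF and angiopoietin list -0.18 and 0. These medians moved with the libraries used. They were -0.29, -0.49 and -0.23 within Shb-inactivated libraries, -0.27, -0.20 and -0.37 in the 3 Itgam-rich libraries against all low ones, and 0.10, 0.02 and -0.05 in Shb-inactivated 5 and 6. Kdr, the main VEGF receptor, was 250.3, 327, 329, 416 and 387 FPKM in the high and 296, 388, 435, 502 and 505 in the low libraries, which overlap. The 13 venous genes had a median of 0.17, with Sele and Selp the only 2 without overlap. The venous median was 0.69 in Shb-inactivated 5 and 6, with 5 of 13 above all low libraries, and that of the 17 tip cell genes was 0.47, with 6, while 7.79% of all compared genes were above all low libraries there. Esm1, a marker of tip cells, was 392, 759.8, 894, 2449 and 976 FPKM in the high and 576, 1157, 967, 642 and 628 in the low libraries, lowest in wild-type 3 and highest in Shb-inactivated 5. Fibroblast and pericyte markers, 12 tested, had a median of -0.62 over the 5 high libraries and of 0.54 in Shb-inactivated 5 and 6. Glycolysis (median -0.07) and oxidative phosphorylation (0.11) had 0 genes without overlap among 14 and 24. The first median was 0.03 after the GC correction and the second -0.02 after quantile normalization.

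**Figure D5:**
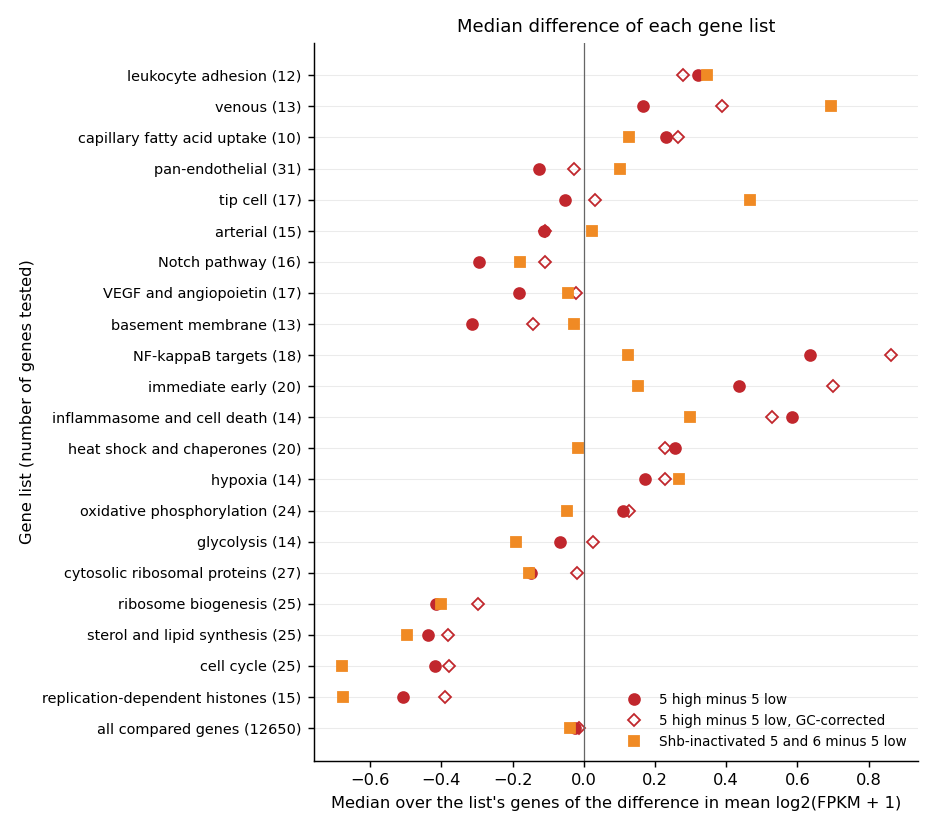
Median over each list's tested genes of the difference in mean log2(FPKM + 1) (horizontal axis), for the 5 high minus the 5 low libraries before (filled circles) and after (open diamonds) the GC correction and for Shb-inactivated 5 and 6 minus the 5 low libraries (squares); lists are on the vertical axis with the number tested. Sterol, ribosome biogenesis, cell cycle and histone lists lie at -0.42 to -0.51 for the 5 high libraries, and all compared genes lie at -0.02.

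Genotype was tested, since the split did not use it. No gene differed between the 6 Shb-inactivated and 4 wild-type libraries by limma with Benjamini-Hochberg adjustment (0 of 12805, 0.0%). At an unadjusted limma p under 0.05 there were 442 genes, fewer than chance alone gives on average. The exact permutation test over the 210 splits of 10 libraries into 4 and 6, two-sided, gave 495 such genes, also fewer than by chance. Adjustment left 0, which the design nearly fixes: at least 1220 genes would have had to reach the smallest p that 210 splits allow, and 53 did. Shb itself differed by -1.27 (SE 0.21, limma adjusted p = 0.989), with an exact permutation p of 0.00476, that smallest value. The split genes did not pass the test: Ifit1 differed by 0.47 (SE 0.57), Irf7 by 0.32 (SE 0.44) and Gbp2 by 0.66 (SE 0.29), each with a limma adjusted p of 0.989. Sele differed by 0.76 (SE 0.64), Selp by 0.81 (SE 0.48), Gp9 by -1.22 (SE 0.64) and Ighm by -1.17 (SE 0.43), again each with a limma adjusted p of 0.989. The high set holds 1 wild-type library, and an effect of genotype beside the interferon split was not tested.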

How the data were processed

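Total RNA of sorted CD31+ cells was sequenced after ribosomal RNA removal with a stranded kit, per the labels' protocols. The authors deposited 1 table of FPKM per library, with a decimal comma, for 28454 symbols. Other tables of these libraries were not used. TopHat2 2.1.1, Cufflinks 2.2.1 and GRCm38 are named in the submitters' processing notes, while for the annotation and the strand setting the sources used here give nothing. FPKM keeps no counts, so depth and counting error are unknown.

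Values were analysed as log2(FPKM + 1), a scale that understates changes of low genes. The filter kept genes that reached 1 FPKM in 4 or more libraries (12805), and 155 interferon genes were left out of the comparison (12650). It let through 19 compared genes with all 5 low libraries under 1 FPKM and 34 with all 5 high ones under it. Differences are of means, high minus low, with the SE of the difference as a description of spread. Genotype was tested with limma 3.58.1 (R 4.3.3), mean-variance trend, two-sided, and checked on simulated data. Its p-values reflect only how these libraries vary, which may be technical.

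The split, the 39 gene lists and the rule for named genes were chosen with earlier results of these data known, and 4 further lists after values were seen. The rule took, per direction, the 12 compared genes with the widest gap between the sets, the 6 largest held in Shb-inactivated 5 and 6 and the 6 largest not seen there, and for each list the 2 with the highest mean and any without overlap. It named 143 genes, of which 55 have values in the text and the others are not reported here. Another 15 genes with values, Ackr1, Bop1, Casp1, Elovl6 and Tec among them, were chosen after their values were seen. Positions and GC content came from GENCODE vM21 on GRCm38. Alternatives changed the pseudocount, filter, scaling, libraries, weights, replicate block and, added after seeing the data, GC content and the libraries without Y-linked transcripts. Tools were Python 3.11.15, pandas 2.3.3 and matplotlib 3.10.9.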

Additional observations from a re-analysis of the deposited data

Results flagged for a closer look

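Within the wild-type group, 4 libraries, and the Shb-inactivated group, 6 libraries, Dixon's ratio was computed for each of the 70 genes with values in the text, 140 groups in all. In 13 of them 1 library lay farther from the rest than the 95% critical value, and chance alone gives such a library in about 1 of 20 groups. Many of the genes were picked for differences between these same libraries, so the 13 are not to be read against that rate. Wild-type 3, the only high library of its genotype, lay above the other 3 in Gbp2 (25.2 FPKM) and Ifit3 (26.7), which restates how the library was placed in the high set, since both are genes of the split. It also lay above them in Ifnb1 (4.34 FPKM), Pydc4 (10.97) and Tec (18.1). Alox12 was lower there, at 3.43 FPKM against 8.33 to 8.61. Ifnb1, Pydc4, Tec and Alox12 had no overlap between the high and low sets, so wild-type 3 was bound to be the extreme of its group. Pydc4 and Alox12 were named for that gap, and Tec was chosen after its values were seen.

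Wild-type 1 was far below the other wild-type libraries in Alpk2 (0.10 FPKM), Ddx3y (0) and Uty (0.18), and Shb-inactivated 2 was far below its group in Ddx3y (0) and Uty (0). Shb-inactivated 5 was far above its group in Esm1, at 2449 FPKM against 628 to 976, and in Pecam1, at 1237 FPKM against 873 to 955.

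The difference between high and low libraries went opposite ways in the genotypes, with no overlap of high and low libraries in either, for 2 genes. Cd74 was higher in the high wild-type library by 2.14 and lower in the high Shb-inactivated libraries, by -1.27, on the log2(FPKM + 1) scale. Esm1 was lower in wild type, by -1.14, and higher in Shb-inactivated libraries, by 0.83. The difference between genotypes was not tested for either.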

How the results depend on the processing

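Depth is unknown, 5 libraries a set are few, and the counts move with which libraries are used, since any gene without overlap among 10 libraries stays so among fewer. Against 283 higher and 438 lower genes without overlap, leaving out 1 library gave 299 to 778 and 483 to 753. The counts that moved most were without Shb-inactivated 6 (778 and 753), without wild-type 4 (472 higher) and without wild-type 1 (670 lower). They were 985 and 1539 without the 3 Itgam-rich libraries, 903 and 1225 without the 3 poor in small RNAs, 2094 and 3153 in Shb-inactivated and 3440 and 3303 in wild-type libraries only, and 515 and 902 without the 2 lacking Y-linked transcripts. The GC correction left 261 lower genes. Against 33 higher and 37 lower genes held in Shb-inactivated 5 and 6, pseudocount 0.1 gave 53 and 99, pseudocount 5 gave 10 and 7, the GC correction 17 and 10, a difference of 0.5 gave 151 and 290, and TPM scaling 76 lower. Leaving out 1 library gave 28 to 72 and 11 to 112: 50 and 68 without wild-type 2, 61 lower without Shb-inactivated 1, 11 lower without Shb-inactivated 5, and 72 and 112 without Shb-inactivated 6. Without the Itgam-rich libraries they were 74 and 93, in Shb-inactivated libraries only 149 and 110, and without those poor in small RNAs 121 lower. Apart from these constructions the cause of such changes was not tested. Wild-type libraries alone give no count of held genes. Of 42 list medians, 12 changed sign without the Itgam-rich libraries: interferon-induced chemokines (-0.18), macrophage (-0.95), neutrophil (-0.23) and fibroblast and pericyte markers (0.54), complement (-0.23), lymphatic (0.35), tip cell (0.47), pan-endothelial (0.10), arterial (0.02), TGF-beta and BMP (0.0021), oxidative phosphorylation (-0.05) and chaperones (-0.02). In wild-type libraries only, 5 did: erythroid markers (0.49), class II presentation (1.97), dendritic cell markers (0.41), glycolysis (0.31) and TGF-beta and BMP (0.09). In Shb-inactivated libraries only, class I presentation (-0.0060) and melanoma markers (0.16) did. The 12 were also taken in Shb-inactivated 5 and 6 against the 3 Itgam-poor low libraries. Chemokines (0.73), neutrophil markers (0.48) and complement (0.16) had the 5-against-5 sign there. So did pan-endothelial (-0.08), arterial (-0.21), TGF-beta and BMP (-0.06) and chaperones (0.02). Macrophage (-0.09) and fibroblast and pericyte markers (0.44), lymphatic (0.48), tip cell (0.25) and oxidative phosphorylation (-0.09) did not. No genotype call appeared under any alternative (limma, 0). Same-numbered libraries of the 2 genotypes deviated together in 2 of 4 pairs (correlations 0.44, -0.32, 0.71 and -0.55), so the numbers were not taken to pair them, and limma with a replicate block also called 0 genes, with 303 at an unadjusted p under 0.05.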

Other observations

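Antigen presentation genes are given by class, and the difference between the classes was not tested. Of 20 tested class I presentation genes, 3 (B2m, H2-T23 and Psmb9) were higher without overlap in the interferon-high libraries, with a median difference of 0.31 on the log2(FPKM + 1) scale. Of 10 class II genes, 0 were without overlap, the median was -0.41, and 9 were below all 5 interferon-low libraries in Shb-inactivated 5 and 6, against 12.2% of the compared genes. The class II median was 1.97 within wild-type libraries. The 5 tested interferon-induced chemokines had a median of 1.57, with Cxcl10 alone without overlap.

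Other cell types and structures also varied. T and NK cell markers (8 tested) had a median of -0.75, with Lck, a kinase of the T cell receptor, lower without overlap. Erythroid markers (4 tested) had a median of -0.92, dendritic cell markers (9 tested) of -0.17 and neutrophil markers (3 tested) of 1.97, each with 0 genes without overlap. The 13 tested basement membrane genes had a median of -0.31 and the 20 chaperones of 0.26, again with 0, and the chaperone median was -0.02 in Shb-inactivated 5 and 6. Complement genes (12 tested, a list drawn up after values were seen) had a median of 1.02, with Cfb and C1ra higher without overlap. In Shb-inactivated 5 and 6 their median was -0.23 against all 5 low libraries and 0.16 against the 3 Itgam-poor ones. Fatty acid uptake genes of capillaries (10 tested) had a median of 0.23 with Aqp1 higher without overlap. The 21 tested TGF-beta and BMP genes had a median of -0.02, which was 0.06 after the GC correction, with Id3 lower without overlap, and the 3 lymphatic genes a median of -0.39.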
